A study of Mus musculus with 4 samples.

Results

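Melanotropes are the endocrine cells of the pituitary intermediate lobe, and they were read here as 2319 of 27220 kept barcodes from single-cell RNA sequencing of mouse pituitary glands. A barcode was kept with at least 500 genes and at most 20% of its unique molecular identifiers (UMIs, each standing for 1 captured RNA molecule) from mitochondrial genes. The members were chosen by measured values of these same cells: a kept barcode was called a melanotrope when Pomc took at least 5% of its UMIs, when Pcsk2, Pax7, Oacyl and Esm1 together had at least 2 UMIs, and when growth hormone (Gh) stayed under 15% and prolactin (Prl) under 5%. Wild-type C57BL/6J male mice were fed for 12 weeks on either of 2 diets, control (CTRL) and high fat (HFD), and each diet gave 2 libraries. The labels do not say whether a library holds 1 gland or a pool, nor the age of the mice, so a p-value below measures only the spread between libraries. Over CTRL 1, CTRL 2, HFD 1 and HFD 2, in that order throughout, the melanotropes numbered 381, 935, 558 and 445.

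Pomc encodes proopiomelanocortin, a prohormone that is cut differently in its pair of pituitary cell types. Corticotropes of the anterior lobe cut it with the convertase PC1 (Pcsk1) and release ACTH. Melanotropes also hold PC2 (Pcsk2), which cuts ACTH further into alpha-MSH and releases beta-endorphin. The pioneer factor Pax7 sets the melanotrope fate, the T-box factor Tbx19 switches on Pomc in both cell types, and dopamine acting on the D2 receptor (Drd2) holds melanotropes in check.

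The sequence before the Pomc start site is shown because the gene defines these cells. Factors known to act on the gene were also at unlike levels in melanotropes and corticotropes. The sequence spans chr12:3954695-3954944 of GRCm38.p6 (mm10) on the plus strand and comes from RefSeq. Capitals mark, in order, the homeodomain core TAATTA, the E-box CAGATG of the kind read by NeuroD factors, and the TATA box TATAAA.
Pomc promoter: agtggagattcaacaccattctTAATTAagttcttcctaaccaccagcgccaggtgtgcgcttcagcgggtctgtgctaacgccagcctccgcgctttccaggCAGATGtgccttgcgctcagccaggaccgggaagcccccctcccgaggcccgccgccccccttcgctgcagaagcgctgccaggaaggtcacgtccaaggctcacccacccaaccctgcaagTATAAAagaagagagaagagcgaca
The homeodomain core began 228 bases before the start, the E-box 147 and the TATA box 25. Read on either strand over the same 250 bases of 32851 promoters, the homeodomain core occurred in 4.84%. The E-box occurred in 14.4% of promoters and the TATA box in 12.4%. The T-box core TCACAC was in 12.3% of promoters and is not among the letters of this window on either strand. The motifs do not overlap each other. Each match describes letters only, and whether any of these factors binds within this window was not tested.

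One library stood apart before any comparison. HFD 1 shared 3116 barcode sequences with HFD 2 and 1423 with CTRL 2, whereas every other pair of libraries shared between 14 and 22. All 247 HFD 1 melanotropes whose barcode also occurred in HFD 2 were melanotropes there as well, with a median of 1289 UMIs in HFD 1 and 23152 in HFD 2. Over those 247 barcodes the Pomc share of UMIs in the pair of libraries correlated at r = 0.99, and its median absolute difference was 0.79 percentage points. Between HFD 1 and CTRL 2, 79 HFD 1 melanotropes had a shared barcode, of which 44 were melanotropes in CTRL 2 too, with medians of 1040.5 UMIs in HFD 1 and 34481.5 in CTRL 2. Of the 558 melanotropes of HFD 1, 286 (51.3%) had more UMIs under the same barcode in another library, and those 286 held 9.5% of the library's melanotrope UMIs. How the sharing arose was not tested. The shares, the diet test and the interaction below are therefore also given with each shared barcode kept once, in the library where it had most UMIs, which leaves 381, 928, 272 and 443 melanotropes in CTRL 1, CTRL 2, HFD 1 and HFD 2.

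Median depth per melanotrope was 19499, 13916, 2848.5 and 17198 UMIs over the 4 libraries. With shared barcodes kept once the median of HFD 1 was 13492, close to that of CTRL 2, against 1245 for the 286 left out. Summed over melanotropes the libraries held 8257673, 14046802, 4416833 and 9204058 UMIs in the same order, and these sums were what the diet tests compared. Levels are given as CPM, which is UMIs of a gene per 1000000 melanotrope UMIs of the library. CPM and the overlap of the diets rest on these plain totals. The log2 differences of the diet test use totals scaled by TMM factors of 0.994, 1.06, 0.994 and 0.957. They therefore tend to lie somewhat above the log2 ratios of the CPM values.

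**Figure D1:**
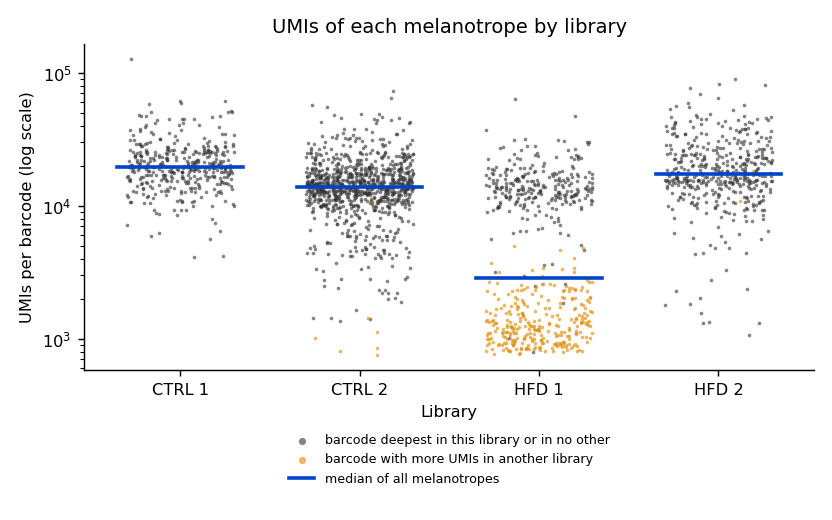
UMIs of each melanotrope (log axis) by library, 1 point a barcode, with orange points for barcodes that had more UMIs in another library and blue lines for the medians of all melanotropes. The orange points fill the lower cloud of HFD 1 (median 1245 UMIs), while its black points (median 13492) lie at the level of the other libraries.

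The label was checked against its marker list, of which only Pkib was not used by the rule. Pkib, an inhibitor of protein kinase A, was at 211, 248, 200.4 and 219 CPM in the melanotropes of the 4 libraries, and between 4.78 and 8.22 CPM in all other kept barcodes. The marker was thus 30.2 to 41.9 times as high in melanotropes in each of the 4 libraries. Against corticotropes alone, chosen as described below, it was 5.85 to 11.1 times as high, since they held 19.7 to 36.1 CPM. The rule genes were high by construction. Pomc was at 189270, 151382, 160341 and 194788 CPM, with overlap between the diets. Pcsk2 was at 2095, 2425, 2907 and 2262 CPM, again with overlap between the diets. Oacyl was at 691, 752, 540 and 665 CPM, and Esm1, which encodes the proteoglycan endocan, at 774, 714, 666 and 605 CPM. Pax7 was at 158 and 166 CPM in CTRL and at 120 and 116 in HFD. For Oacyl, Esm1 and Pax7 the HFD libraries lay below both CTRL libraries, which is a description since the rule chose cells by these genes. These orders depended on a subset described below: without it, and with shared barcodes kept once, Esm1 overlapped between the diets (850 and 742 CPM against 798 and 658) and Pcsk2 did not (2384 and 2550 CPM in CTRL against 3528 and 2612 in HFD).

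The edge of the rule was well filled. Among barcodes meeting the other limits, 92 had Pomc between 5 and 6% and 86 just outside had 4 to 5%. Exactly 2 UMIs of the 4 rule genes were found in 118 melanotropes, and 227 barcodes that met the Pomc, Gh and Prl limits were left out with 1 UMI and 580 with none. Over the 4 libraries those with none numbered 63, 96, 242 and 179, of 4513, 7334, 8012 and 7361 kept barcodes. They were thus more frequent in both HFD libraries, with shared barcodes included. Within the melanotropes Pomc ranged widely. The 10th percentile, median and 90th percentile of its share were 8.45%, 17.8% and 28.7% in CTRL 1, and 6.99%, 13% and 27% in CTRL 2. They were 7.33%, 15.7% and 30.5% in HFD 1 and 7.61%, 16.6% and 31.7% in HFD 2. The highest single barcode gave 59.3% of its UMIs to Pomc. These distributions overlap between the diets over most of their range.

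A group of barcodes with few rule-gene UMIs for their depth stood apart among the melanotropes. Counted with shared barcodes kept once, most melanotropes had 20 to 80 UMIs of the 4 rule genes per 10000 UMIs, and a smaller group lay below 10. That group held 55, 48, 65 and 87 barcodes, or 14.4%, 5.17%, 23.9% and 19.6% of the melanotropes. As a share of all kept barcodes it was 1.22%, 0.664%, 1.06% and 1.19%, so that the diets overlapped on that scale. These barcodes had medians from 12927 to 18230 UMIs. Shallow barcodes could not enter the group, since at least 2 rule-gene UMIs at under 10 per 10000 require depth. The group's share of the melanotropes thus depends on the depth of a library. Esm1 made up most of their rule-gene UMIs, at 200.2 to 275 CPM against 63.9 to 115 for Pcsk2, 8.67 to 36.4 for Oacyl and 3.17 to 12.6 for Pax7. The line at 10 was drawn after the distribution was seen.

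**Figure D2:**
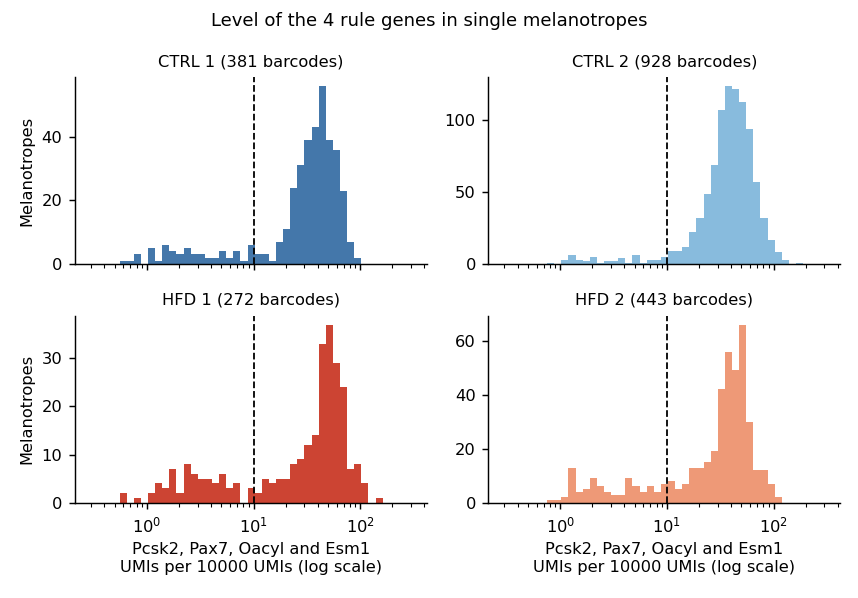
Histograms of rule-gene UMIs (Pcsk2, Pax7, Oacyl and Esm1) per 10000 UMIs, on a log axis, in the melanotropes of each library with shared barcodes kept once; the vertical axis counts barcodes and the dashed line is at 10. A minor group lies left of the line in all 4 libraries and holds 5.17% of the melanotropes in CTRL 2 and 23.9% in HFD 1.

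Below that line, genes of corticotropes were high. Corticotropes were taken for comparison as 648 kept barcodes with at least 2% Pomc, no UMI of the 4 rule genes and at least 1 UMI of the receptors Crhr1 or Avpr1b. Crhr1, the receptor for corticotropin-releasing hormone, was at 74.2 to 87.7 CPM over the 4 libraries in the group below 10, at 4.68 to 9.66 in the other melanotropes and at 127 to 162 in corticotropes, where the rule for corticotropes used it. Neurod1, a factor that acts on Pomc in corticotropes, was at 44.9 to 61.1 CPM below the line, at 1.64 to 3.54 in the other melanotropes and at 76.5 to 88.4 in corticotropes. Nr3c1, the glucocorticoid receptor, was at 248 to 365 CPM below the line and at 11 to 22.9 in the other melanotropes. Drd2 went the other way, at 2.24 to 8.4 CPM below the line against 113 to 128 above it. So did Pkib, at 41.5 to 77 CPM below the line, 234 to 257 above it and 19.8 to 36.4 in corticotropes. In these genes the ranges of the group below the line did not overlap those of the other melanotropes. Pomc there was at 123422 to 140174 CPM, between the corticotropes (66815 to 87135) and the other melanotropes (152943 to 205966). The order against corticotropes was set in part by the rules, which asked for 5% Pomc in melanotropes and 2% in corticotropes. The label of melanotrope thus went against the corticotrope markers in this group, so the shares, the named diet genes and the counts of each gene list are also given without it.

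**Figure D3:**
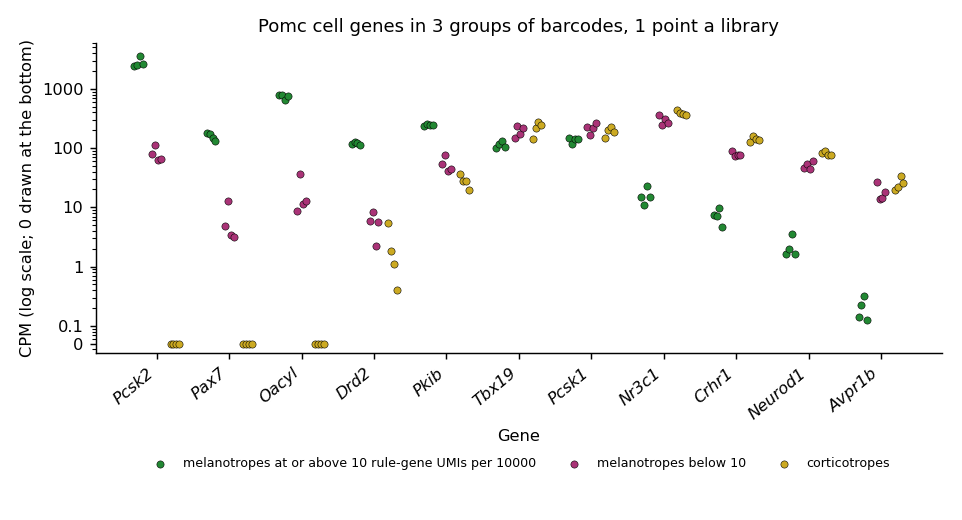
CPM (log axis, zeros drawn at the bottom) of 11 genes in melanotropes at or above 10 rule-gene UMIs per 10000, melanotropes below 10, and corticotropes, with 1 point a library and shared barcodes kept once. For Crhr1, Neurod1, Nr3c1 and Drd2 the points of the group below 10 lie apart from those of the other melanotropes, on the side of the corticotropes.

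Beyond the rule genes, several genes marked melanotropes off from corticotropes in every library, ranked by the lowest of the 4 folds among genes of at least 50 CPM in every library's melanotropes. Gulo, the last enzyme of vitamin C synthesis, was at 66.6, 109, 74.7 and 88.5 CPM in melanotropes, and corticotropes held 1 UMI of it in all. Ppp1r17, a phosphatase inhibitor, was at 64.1 to 89.6 CPM, against 4 UMIs in all corticotropes. Enc1, a kelch-like protein of the nervous system, was 56.2 times as high in melanotropes in the library of lowest fold, against 12 corticotrope UMIs in all. The lowest fold was 42 for the histone gene Hist3h2ba (15 UMIs), 29.7 for the junctional adhesion protein Jam2 (27 UMIs) and 27.2 for lipoprotein lipase, Lpl (10 UMIs). With so few UMIs in corticotropes the higher folds of these genes are imprecise and are not given.

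Genes of dopamine, GABA and glutamate handling were in the same set. Drd2 was at 103, 122, 98.5 and 98.7 CPM in melanotropes and at 0.39 to 5.5 CPM in corticotropes (13 UMIs in all). Gad2, which makes GABA from glutamate, was at 74.5, 92.1, 90.6 and 74.2 CPM, with a lowest fold over corticotropes of 11.8 (27 UMIs). Slc1a3, a glutamate transporter, had a lowest fold of 15.3 (26 UMIs). The antisense transcript Pcsk2os1, Clu (the chaperone clusterin) and Slitrk6 (a neuronal membrane protein) completed the 12, at lowest folds of 17.3, 9.35 and 8.1. Leaving aside Gulo and Ppp1r17, the lowest folds with shared barcodes kept once ranged from 8.09 (Slitrk6) to 55.8 (Enc1). Counting here did not state the use of strand in the sources used, so Pcsk2os1 and Pcsk2 reads may not be told apart where they overlap.

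Against all other kept barcodes the ranking again began with Gulo, at 64.3 to 139.9 times the level of the rest. Of the 12 genes, 5 were rule genes, namely Oacyl, Pax7, Esm1, Pcsk2 and Pomc. Ppp1r17, Pkib and Enc1 were also among them. Scn2a, the pore of a neuronal sodium channel, was 18 to 30.5 times as high, Hopx, a homeodomain-only protein, 16.7 to 23.6 times and Gem, a GTP-binding inhibitor of calcium channels, 12.3 to 20.2 times. Gem was at 888, 629, 841 and 883 CPM, with overlap between the diets. Keeping shared barcodes once left the lowest folds of Scn2a, Hopx and Gem at 18.1, 16.7 and 12.3.

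Genes known to act in both Pomc cell types differed less. Tbx19 was at 106, 122, 138 and 120 CPM, or 0.49 to 0.73 times its level in corticotropes. Pcsk1 was at 157, 119, 159 and 158 CPM, at 0.59 to 1.04 times. Carboxypeptidase E (Cpe), which trims the cut peptides, was 1.14 to 1.33 times as high, and the amidating enzyme Pam 1.55 to 2 times. The ETS factor Etv1 was 2.96 to 4.51 times as high.

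Pomc led the 10 most abundant transcripts at a mean of 173945 CPM over the libraries, followed by the nuclear RNA Malat1 at 43522 CPM. Gnas, the stimulatory G protein subunit that carries receptor signals to cAMP, was next at 9001 and 8512 CPM in CTRL and 9966 and 10364 in HFD. Gh came after Gnas, at 4810 and 4727 CPM in CTRL and 6071 and 8715 in HFD, in cells that the rule kept under 15% of it. The others were Gm42418, a transcript that overlaps ribosomal RNA, the ferritin gene Fth1, the ribosomal protein gene Rpl41, and the mitochondrial genes mt-Co1, mt-Atp6 and mt-Co2.

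Genes of other cell types were present at uneven levels over the libraries. The 4 thyrotrope genes summed to 1480 and 2402 CPM in CTRL and 867 and 4731 in HFD, the largest sum of these lists in every library but HFD 1. The 4 somatotrope genes other than Gh summed to 172 and 139 CPM in CTRL and 203 and 187 in HFD, and the 4 corticotrope genes to 84.9 and 47.3 against 109 and 70. The 7 endothelial genes summed to 58.6 and 28.6 against 12.7 and 33.4 CPM, the 7 macrophage genes to 75.1 and 21.8 against 29.4 and 75.7, and the 5 pituicyte genes, of the posterior lobe, to 8.23 and 13.7 against 15.6 and 11.7. The 5 granulocyte genes were at 214 CPM in HFD 1 and between 0 and 0.869 in the other libraries. The 5 red cell genes were at 509 and 1460 CPM in CTRL 1 and HFD 1 against 34.8 and 56.1 in CTRL 2 and HFD 2. Some of these sums were unlike in a smaller set of barcodes. With shared barcodes kept once and without the group below 10 rule-gene UMIs per 10000, the red cell sums were 47.6 and 35.1 CPM in CTRL and 58.9 and 55.1 in HFD, and the corticotrope sums 27.7 and 31.4 against 33.2 and 24.4. The thyrotrope sums were then 1647 and 2523 against 115 and 4483 CPM, and the granulocyte sum of HFD 1 was 305. No gene of these lists was at 0 in all 4 libraries, and their part in the results was not tested.

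The first comparison asks whether the diet altered how many melanotropes were recovered. Their share of kept barcodes was 8.44% and 12.7% in the CTRL libraries and 6.96% and 6.05% in those of HFD. The exact (Clopper-Pearson) 95% intervals, which reflect counting error alone, ran from 7.65 to 9.29, 12 to 13.5, 6.42 to 7.54 and 5.51 to 6.61. Both HFD libraries lay below both CTRL libraries, with means of 10.6% ± 3.05 (SD, n = 2) in CTRL and 6.5% ± 0.65 in HFD. The exact permutation test over libraries, two-sided, gave p = 0.333, the smallest that 2 against 2 can give. The log2 ratio was -0.70, and it was -0.38 without CTRL 2 and -0.97 without CTRL 1, so the ratio depended on CTRL 2.

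The order of the shares was kept when shared barcodes counted once. The shares were then 8.46%, 12.8%, 4.42% and 6.04% in the same order, with a log2 ratio of -1.03 and the same p of 0.333 in the exact permutation test. Without the group below 10 rule-gene UMIs as well they were 7.24%, 12.2%, 3.36% and 4.85% (log2 ratio -1.24, exact permutation p = 0.333). Thinning every barcode to 2000 UMIs before the rule gave 7.67%, 12.5%, 4.39% and 4.99%. How much of the intermediate lobe each dissection and digestion carried was not measured. With shared barcodes kept once, pituicytes of the adjoining posterior lobe numbered only 28, 64, 29 and 74, or 0.622%, 0.885%, 0.471% and 1.01% of kept barcodes. HFD 1 was the lowest library for both pituicytes and melanotropes, and HFD 2 the highest for pituicytes. Corticotropes, by the comparison rule above and counted likewise, were 1.91%, 2.1%, 2.83% and 2.9%, higher in both HFD libraries. The part of dissection in these shares was not tested.

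**Figure D4:**
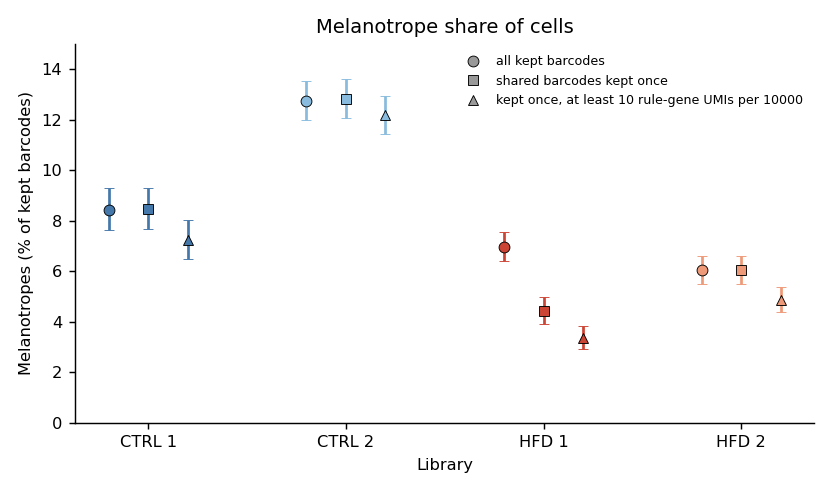
Melanotropes as a percentage of kept barcodes by library, for all kept barcodes, for shared barcodes kept once, and with at least 10 rule-gene UMIs per 10000 besides; bars are 95% Clopper-Pearson intervals of the counts. Both HFD libraries lie below both CTRL libraries in each of the 3 counts, and the nearest pair is 6.96% against 8.44% over all kept barcodes and 4.85% against 7.24% in the last count.

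The second comparison asks which genes differed by diet within melanotropes. Of 13557 genes tested on summed counts with edgeR's quasi-likelihood test, 1 passed a Benjamini-Hochberg adjusted p of 0.05, which is 0.00738%. At an unadjusted p under 0.05 there were 1085 genes (8%), of which 603 (4.45%) were higher in HFD and 482 (3.56%) lower. DESeq2 called 17 genes, 16 of them higher.

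The gene that passed was Gm26737, an antisense transcript on chromosome 9 (44112923 to 44121960, plus strand, mm10) whose first bases overlap those of Rnf26 on the opposite strand (44095631 to 44113517). Without known strand use in the counting, the 2 genes' reads may not be told apart there. Its mean level was under 20 CPM, so it is named after its values were seen. It was at 0.48 and 0.21 CPM in CTRL and 19.2 and 11.7 in HFD (log2 difference 5.59, SE 0.45, edgeR adjusted p = 0.0398). The level in HFD came from single barcodes. In HFD 1, 79 of its 85 UMIs lay in 1 barcode, and in HFD 2, 106 of 108. Both barcodes held melanotrope genes, with Pomc at 12.4% and 16.8% of UMIs and 55 and 86 rule-gene UMIs. Without the richest barcode of each library, edgeR called 0 genes, with 1073 at an unadjusted p under 0.05. Keeping shared barcodes once, Gm26737 still passed (log2 difference 5.67, edgeR adjusted p = 0.0411). It did not pass without CTRL 1 (edgeR adjusted p = 0.838) or without HFD 1 (0.122).

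Since no other gene passed, the 10 higher and 10 lower genes of smallest unadjusted p follow, at 20 CPM or more on average and with no overlap between the diets. No overlap in the direction of HFD was found for 11.4% of all genes tested, and in the direction of CTRL for 28.4%. None of the 20 passed, with edgeR adjusted p-values from 0.251 to 0.62.

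Among the 10 higher genes, 9 had their highest level of all cell classes in corticotropes. Chrne, a subunit of the muscle acetylcholine receptor, was at 16.5 and 13.1 CPM in CTRL and 40.5 and 32.5 in HFD (log2 difference 1.38, SE 0.18, edgeR adjusted p = 0.251). Lrrc10b was at 16 and 12 CPM in CTRL and 42.8 and 32.9 in HFD (log2 difference 1.51, SE 0.20). Obsl1, a cytoskeletal adaptor, was at 30.6 and 27.3 against 53.4 and 60.7 CPM. The other corticotrope-high genes were Slc25a25 (a mitochondrial ATP-Mg carrier), the long noncoding RNA 5330439M10Rik, C2cd4b, Jakmip1 (the entry ENSMUSG00000063646, as the symbol occurs more than once), Adssl1 (a purine enzyme) and Pmvk (an enzyme of the mevalonate route to cholesterol). Pmvk was at 160.1 and 184 CPM in CTRL and at 416 and 255 in HFD.

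Most of these differences were smaller without the melanotropes below 10 rule-gene UMIs per 10000, called the low-rate barcodes from here on. Once they were left out and shared barcodes were kept once, Chrne was at 11.8 and 11.3 CPM in CTRL and 20.9 and 20.8 in HFD (log2 difference 0.94). Jakmip1 (entry ENSMUSG00000063646) went from a log2 difference of 0.97 to 0.30, Obsl1 from 1.06 to 0.69 and Lrrc10b from 1.51 to 1.15. All 10 genes still had no overlap between the diets, but they were chosen for that. The barcodes left are part of the same melanotropes, so the separation is no independent result. Of all genes so counted, 9.58% had it in this direction and 26.5% in the other, which is no yardstick for chosen genes. The median log2 difference of the 10 was 0.91 against 1.09 in all melanotropes. Adssl1, also highest in corticotropes, did not shrink, at a log2 difference of 0.96 in both sets of barcodes. Rrad, a relative of Gem in the same family of calcium channel inhibitors, was highest in pericytes. It was at 23.6 and 11.2 CPM in CTRL and 67.7 and 49.9 in HFD (log2 difference 1.85, SE 0.33, edgeR adjusted p = 0.562). Its log2 difference was 2.2 without the low-rate barcodes and with shared barcodes kept once. Up to 22.1% of its UMIs in a library came from 1 barcode.

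Of the 10 lower genes, 3 were highest in melanotropes and none in corticotropes. Ndst3, an enzyme that modifies heparan sulfate, was at 29.2 and 34 CPM in CTRL and 18.6 and 16.2 in HFD (log2 difference -0.80, SE 0.14, edgeR adjusted p = 0.453). Sv2b, a synaptic vesicle protein, was at 63.9 and 77.7 against 48.2 and 41.6 CPM. Snhg11, a noncoding transcript of neurons, was at 458 and 435 against 333 and 274 CPM. In all 3 the HFD libraries lay below both CTRL libraries, as the choice of these genes required. Without the low-rate barcodes and with shared barcodes kept once, the log2 differences were -0.66, -0.51 and -0.36.

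The other 7 lower genes had wider use across the gland. Rbm3, an RNA-binding protein induced by cold, was at 215 and 241 CPM in CTRL and 147 and 139 in HFD (log2 difference -0.60, SE 0.10, edgeR adjusted p = 0.453). Acsl3, which activates long-chain fatty acids, was at 81.4 and 67.4 against 50.3 and 40.9 CPM. Rragd, a Rag GTPase of the lysosome, Klhl24, 2610008E11Rik and Spen, a transcriptional repressor, had log2 differences of -0.62, -0.70, -0.59 and -0.47. Without the low-rate barcodes and with shared barcodes kept once, all 10 lower genes kept the separation they were chosen for. Their median log2 difference was then -0.58 against -0.61.

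No gene of the lists that follow passed the edgeR test in melanotropes, and rule genes are left out of the counts. The median log2 difference of all genes tested was -0.01. For the 1385 genes of at least 100 CPM it was 0.10, and of those 24.8% lay higher and 16.7% lower in both HFD libraries, the background for lists of abundant genes. For lists of mostly lower genes it is the 11.4% higher and 28.4% lower of all genes tested. Each list is counted a second time with shared barcodes kept once and the low-rate barcodes left out, which is called the reduced set. There the shares were 9.58% higher and 26.5% lower of all genes, and 20.9% and 13.6% of the abundant genes.

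Of 14 tested genes of Pomc processing, 5 were higher in both HFD libraries and 1 lower, against 11.4% and 28.4% of all genes tested. Their median log2 difference was 0.16. In the reduced set 3 of 13 were higher and none lower, and Cpe and Pcsk1 overlapped between the diets. Pam was at 424 and 449 CPM in CTRL and 499 and 463 in HFD, and Cpe at 610 and 584 against 618 and 644. Pcsk1 was at 157 and 119 CPM in CTRL and 159 and 158 in HFD. Scg5, the chaperone that PC2 needs, overlapped between the diets at 981 and 1010 against 997 and 1119 CPM. The differences were small against the level of each gene, and the edgeR adjusted p-values of the list were 0.639 or more.

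Of 21 tested genes of granules and exocytosis, 6 were higher and 4 lower in both HFD libraries (median log2 difference 0.10). The list holds many abundant genes, for which the shares were 24.8% and 16.7%, against 11.4% and 28.4% over all genes tested. The counts in the reduced set were the same. Vgf, the precursor of several secreted peptides, was at 24.1 and 36.4 CPM in CTRL and 43.7 and 46.9 in HFD (log2 difference 0.65, edgeR adjusted p = 0.62). Secretogranin 2 (Scg2) was at 2401 and 1914 against 2466 and 2867 CPM. Chromogranin A (Chga) went the other way, at 1357 and 1471 CPM in CTRL and 1083 and 1167 in HFD (log2 difference -0.26). Cplx2, a complexin of vesicle fusion, was at 239 and 268 against 213 and 181 CPM. Scg2 and Chga, both granins, thus lay in opposite directions.

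Of 18 tested factors of Pomc cells, 2 were higher and 1 lower in both HFD libraries, against 11.4% and 28.4% of all genes tested. In the reduced set 1 of 17 was higher and 1 lower. Pitx1, which acts with Tbx19 on Pomc, was at 105 and 111 CPM in CTRL and 128 and 146 in HFD (log2 difference 0.43, edgeR adjusted p = 0.62). Its log2 difference was the same 0.43 in the reduced set. Neurod1 was at 7.14 and 4.63 CPM in CTRL and 12 and 9.78 in HFD, and it overlapped between the diets in the reduced set. Etv1 was at 397 and 394 against 347 and 348 CPM.

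Inhibitory input genes had a median near that of all genes. Of 21 tested genes of dopamine and GABA inhibition, none was higher and 9 were lower in both HFD libraries, at a median log2 difference of -0.03. Lower values in both HFD libraries were found for 28.4% of all genes tested. In the reduced set none was higher and 7 were lower, against 26.5% of all genes, and the median was 0.03. Drd2 (103 and 122 CPM in CTRL, 98.5 and 98.7 in HFD) overlapped in the reduced set. Gnaz, an inhibitory G protein subunit, was at 19.7 and 24.3 against 12.2 and 16.8 CPM (log2 difference -0.49, edgeR adjusted p = 0.62). Among GABA receptor subunits Gabra2 was at 38.8 and 64.9 against 54.1 and 56.8 CPM, and Gabrb1 at 58.2 and 67.9 against 57.1 and 58.2.

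Of 24 tested genes of releasing receptors and cAMP signalling, 4 were higher and 6 lower (median log2 difference 0.09). The shares over all genes tested were 11.4% and 28.4%. In the reduced set 3 of 22 were higher and 4 lower. Gnas, whose values stand above, had a log2 difference of 0.29 (edgeR adjusted p = 0.62). Crem, a cAMP-responsive factor, was at 232 and 204 CPM in CTRL and 274 and 253 in HFD (log2 difference 0.34), while Creb1 was at 30.6 and 30 against 22.9 and 23.5 CPM. The related factors thus lay in opposite directions.

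Of 22 tested calcium and sodium channel genes, 1 was higher and 9 lower in both HFD libraries, against 11.4% and 28.4% of all genes tested, at a median log2 difference of -0.03. In the reduced set 1 of 21 was higher and 8 lower. Cacnb2, an auxiliary calcium channel subunit, was at 50.3 and 62.7 CPM in CTRL and 36.5 and 41.6 in HFD (log2 difference -0.45, edgeR adjusted p = 0.62). Scn8a, a sodium channel pore, was at 17.8 and 20.5 against 10.6 and 12.9 CPM. Scn2a, the sodium channel that marked melanotropes off from the rest, overlapped at 62.1 and 96.6 against 69.7 and 76.6 CPM. Of 18 tested potassium channel genes 1 was higher and 5 lower, with a median log2 difference of 0.01, and in the reduced set 3 were higher and 4 lower.

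Immediate-early genes, which respond within minutes to signals and to cell handling, gave no common direction. Of 25 tested, 1 was higher and 4 lower in both HFD libraries (median log2 difference -0.12), against 11.4% and 28.4% of all genes tested. In the reduced set 1 was higher and 3 lower (median -0.06). Ier3 was at 62.9 and 41.9 CPM in CTRL and 112 and 143 in HFD (log2 difference 1.36, edgeR adjusted p = 0.453). Egr3 was at 127 and 98.2 against 73.4 and 29.9 CPM (log2 difference -1.11, edgeR adjusted p = 0.62), and Egr2 at 11.7 and 11.8 against 6.79 and 7.17. Fos (641 and 1134 against 858 and 584 CPM) and Atf3 (1200 and 386 against 682 and 341 CPM) differed as much within a diet as between the diets. Of 16 heat shock genes 2 were higher and none lower, with a median of 0.01, and in the reduced set 1 was higher and none lower.

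Glucocorticoid targets had the highest list median of the 11 lists drawn in the plot of list differences, and it moved most with the low-rate barcodes. Of 14 tested, 7 were higher and 2 lower in both HFD libraries, against 11.4% and 28.4% of all genes tested. Their median log2 difference was 0.41. Rasd1, a Ras-like protein induced by glucocorticoids, was at 48.9 and 23.4 CPM in CTRL and 102 and 69.1 in HFD (log2 difference 1.31, edgeR adjusted p = 0.62). Fkbp5 was at 22.3 and 29 against 36 and 36.8 CPM and Ddit4 at 23.9 and 23.2 against 34.4 and 28.6. In the reduced set the median was 0.06, and Rasd1, Fkbp5 and Ddit4 overlapped between the diets. There 1 gene was higher and 3 lower, against 9.58% and 26.5% of all genes.

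Of 30 tested lipid and sterol genes, 3 were higher and 13 lower in both HFD libraries, where all genes tested also lay lower (28.4%) more often than higher (11.4%). In the reduced set 3 of 29 were higher and 10 lower, against 9.58% and 26.5% of all genes. The list had a median log2 difference of -0.15 (-0.20 with shared barcodes kept once). Scd2, a desaturase, was at 80.5 and 71.8 CPM in CTRL and 53.9 and 60.8 in HFD (log2 difference -0.33, edgeR adjusted p = 0.623), and Acadm, a mitochondrial enzyme of fatty acid oxidation, at 33.1 and 32.2 against 26.5 and 23.1. Among the 3 higher genes, the fatty acid binding protein Fabp5 was at 130 and 172 CPM in CTRL and 173 and 278 in HFD (overlapping when only shared barcodes were kept once, not in the reduced set), and the uncoupling protein Ucp2 at 237 and 232 against 269 and 271. Of 18 tested insulin and leptin signalling genes 2 were higher and 4 lower, and in the reduced set 1 of 16 was higher and 3 lower, with Irs4 at 13.9 and 8.26 against 30.1 and 15.5 CPM.

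Of 20 nuclear genes of the respiratory chain, 13 were higher and none lower in both HFD libraries, at a median log2 difference of 0.18, against 24.8% and 0.10 for abundant genes in general. Cox5a was at 129 and 149 CPM in CTRL and 163 and 177 in HFD (log2 difference 0.36, edgeR adjusted p = 0.62), and Atp5g1, a subunit of ATP synthase, at 343 and 353 against 393 and 433. Without the low-rate barcodes and with shared barcodes kept once, 7 of the 20 were higher and none lower, against 20.9% higher and 13.6% lower among abundant genes. Of the 13 genes of the mitochondrial genome, none was higher and 8 were lower (median -0.06), against 24.8% and 16.7% of abundant genes. In the reduced set 6 were lower. The gene mt-Nd6 was at 58 and 58.4 CPM in CTRL and 50.5 and 36.1 in HFD. The median mitochondrial share per melanotrope was 2.71%, 2.64%, 2.45% and 2.42% over the 4 libraries.

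Of 22 tested genes of the unfolded protein response, 6 were higher and 2 lower, against 24.8% and 16.7% of abundant genes. The median log2 difference was 0.11, near that of abundant genes. In the reduced set 7 were higher and 2 lower. Sdf2l1, a chaperone partner of the endoplasmic reticulum, was at 76.3 and 76.4 CPM in CTRL and 88.3 and 93.5 in HFD (log2 difference 0.33, edgeR adjusted p = 0.62). Hspa5, the main chaperone there, overlapped at 873 and 907 against 856 and 938 CPM.

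**Figure D5:**
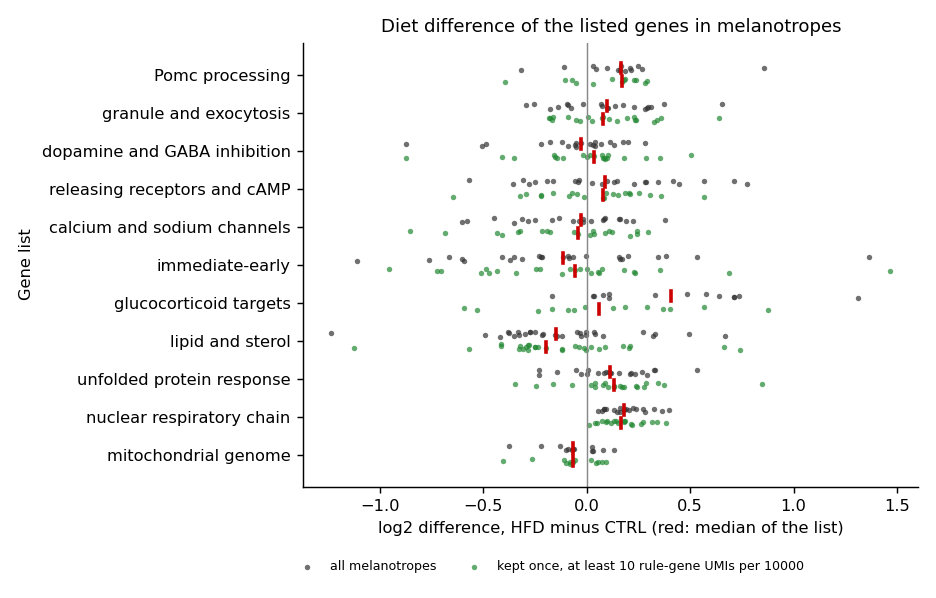
The log2 difference of HFD minus CTRL for each tested gene of 11 lists, rule genes left out, in all melanotropes (black) and with shared barcodes kept once and at least 10 rule-gene UMIs per 10000 (green); red lines are list medians. The median of the glucocorticoid targets goes from 0.41 to 0.06, while that of the nuclear respiratory chain stays above 0 at 0.18 and 0.17.

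The third comparison asks whether the diet difference in melanotropes was unlike that in corticotropes of the same libraries, by an interaction term in edgeR with the library as a block. Of 12674 genes tested 1 passed (0.00789%), and 704 (5.55%) had an unadjusted p under 0.05. It was Il1b, the cytokine interleukin 1 beta on chromosome 2 (129364570 to 129371139, minus strand, mm10), whose highest class was macrophages. In melanotropes it was at 24.9 and 4.49 CPM in CTRL and 2.72 and 4.35 in HFD, and in corticotropes at 0.79 and 0 in CTRL and 19.5 and 13 in HFD (log2 difference between the cell types -7.29, SE 0.79, edgeR adjusted p = 0.0268). Single barcodes carried most of it. In CTRL 1, 163 of 206 melanotrope UMIs lay in 1 barcode, and in the corticotropes of HFD 1 and HFD 2, 34 of 36 and 32 of 33. When each shared barcode was kept once 0 genes passed (0%), 625 had an unadjusted p under 0.05, and Il1b had an edgeR adjusted p of 0.0909, and over all alternatives its adjusted p ran from 9.13e-21 to 0.0948. DESeq2 called 3 genes.

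The next 4 genes did not pass. Klf6, a zinc finger factor, was at 60.1 and 61.1 CPM in the CTRL melanotropes and 38.9 and 29.9 in HFD, and at 42.4 and 42.7 against 72 and 59.5 CPM in corticotropes (log2 difference -1.44, SE 0.18, edgeR adjusted p = 0.0509). Rgs4, which speeds the shut-off of G protein signals, was at 25.3 and 59.7 against 18.8 and 24.6 CPM in melanotropes and at 1.57 and 0.6 against 11.4 and 10.6 in corticotropes (log2 difference -4.36, edgeR adjusted p = 0.0578). For Klf6 and Rgs4 the diets did not overlap in either cell type and lay in opposite directions. In the corticotropes Rgs4 rested on 1 to 10 barcodes a library, and 12 of its 27 UMIs in HFD 2 were in 1 of them. For Klf6 the largest part in 1 barcode was 154 of 858 UMIs in melanotropes (CTRL 2) and 13 of 54 in corticotropes (CTRL 1). Their highest classes were stem cells for Klf6 and pericytes for Rgs4. Tnnt1, a slow muscle troponin, and Igfbp7, a secreted binding protein, had edgeR adjusted p-values of 0.135 and 0.183.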

How the data were processed

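Pituitary cells were measured with droplet single-cell RNA sequencing (10x Genomics 3' v3.1, per the labels' protocols) in 4 libraries. The deposited values are whole-number UMI counts per gene (32285 genes) and barcode, not normalized. Cell Ranger 6.1.2, Seurat 4.3 and the build mm10 are named without roles, per the submitters' processing notes. For the annotation and the use of strand, nothing is stated in the labels or headers.

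The members and lists were chosen with earlier results of these data known. Cells were kept and named by the stated limits, and no doublet caller was run, so the Gh and Prl limits and the alternatives without the top 2% of UMIs stand in for one. Counts were summed per library over melanotropes and over corticotropes and tested with edgeR 4.0.16 (quasi-likelihood, TMM, filterByExpr, Benjamini-Hochberg at 0.05) in R 4.3.3; DESeq2 1.42.0 was an alternative. The SE is the log2 difference over the root of F. Shares were tested with scipy 1.17.1. The tests were first tried on simulated data.

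Named diet genes were the 10 higher and 10 lower of smallest p at 20 CPM or more with no overlap, since fewer than 10 passed, leaving out likely free RNA (under 10% of the highest class, 1200 genes). Class rankings took 12 genes at 50 CPM or more. Coordinates come from GENCODE vM21 (mm10). Replicate numbers were not used as pairs in the main tests. Values of a few list genes and of 1 lower gene are not reported here.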

Additional observations from a re-analysis of the deposited data

Results flagged for a closer look

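Il1b had a diet difference in melanotropes unlike that in corticotropes, by the interaction term itself. The log2 difference in melanotropes minus that in corticotropes was -7.29 (SE 0.79, edgeR adjusted p = 0.0268). Most of its UMIs came from single barcodes in both cell types, and the part of those barcodes was not tested. With shared barcodes kept once it was -7.41 and did not pass (edgeR adjusted p = 0.0909). Groups of 2 libraries are too small to look for a library far from the others.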

How the results depend on the processing

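The number of genes called by diet was 1 with TMM and with RLE size factors. It was 17 with DESeq2, 294 with no low-count filter, 15 after thinning to 2000 UMIs and 0 without the barcode richest in Gm26737 (edgeR, 1073 at an unadjusted p under 0.05). Leaving out 1 library gave 0 (without CTRL 1, 646 at an unadjusted p under 0.05) to 51 (without CTRL 2), and 2 to 71 with shared barcodes kept once (37 and 71 without the first and the second CTRL library, 2 and 11 without those of HFD). For the interaction the count was 1 with TMM, 3 with DESeq2, 119 with no low-count filter, 4 at 4 or more rule-gene UMIs, 3 with Gh under 5% and Prl under 2%, 5 at 10 or more rule-gene UMIs per 10000 and 2 without the barcode richest in Gm26737. It was 0 with stricter cell limits, after thinning, without the top 2% of UMIs and with shared barcodes kept once (662, 396, 667 and 625 genes at an unadjusted p under 0.05), and 13 to 95 with 1 library left out. Where 1 library is left in a diet it is assumed to vary like the others. With the replicate number as a block, 9 genes were called by diet and 53 in the interaction. Deviations of CTRL 1 and HFD 1 from their diet means correlated at r = 0.02 over the genes tested. That single value cannot show whether some genes followed the replicate number, as the red cell sums over all melanotropes did. The log2 ratio of the melanotrope share was below 0 in all alternatives, from -0.38 (without CTRL 2) to -1.30 (shared barcodes kept once, without CTRL 1). Of 774 alternative values for 38 named genes none changed sign. That was partly fixed in advance, since the diet genes of smallest p were chosen for no overlap between the diets. The alternatives also reuse all or part of the same barcodes. Of the 774 values, 96 passed where the value reported did not, and 6 no longer passed. The cause of these shifts was not tested. Depth limits HFD 1 most, with 4416833 melanotrope UMIs, and corticotropes more than melanotropes.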
